A study of Mus musculus with 10 samples.

Results

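A set of 50 genes of nucleolar ribosome biogenesis was followed across RNA-seq libraries of mouse plasma cells, 5 of IgG1 and 5 of IgM cells. The genes were taken by name, as the rows of the FPKM files whose Ensembl identifiers map to the listed symbols of rRNA synthesis, rRNA modification and subunit assembly in GENCODE M21 on GRCm38. All 50 were found among 47719 identifiers, and all 50 were among the 9900 genes tested, those whose mean over the 10 libraries reached 1 FPKM. The rule itself uses no measured value, but the members were chosen with earlier results of these data known.

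Both groups were splenic plasma cells derived from germinal centres, one sorted as IgG1 and one as IgM. Both came from donor B cells with 3 alleles: S1PR2-CreERT2, whose Cre is switched on by tamoxifen in B cells of the germinal centre, Ai14, a reporter that leaves tdTomato on once Cre has acted, and B1-8 germline, an antibody heavy chain with affinity for the hapten NP in pairs with lambda light chains. After transfer of these cells, wild-type hosts were given NP-CGG in alum on day 0, and tamoxifen followed on days 5 and 6. Donor plasma cells that were tdTomato-positive were sorted on day 10. Animal age is not given in the labels. Nor do they say whether each library is an animal of its own, and the p-values therefore reflect the spread among these libraries, part or all of which may be technical. In bulk RNA, fewer cells that express a gene and less of its RNA per cell cannot be told apart.

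Ribosomes are built in the nucleolus. RNA polymerase I transcribes the rRNA precursor, small nucleolar ribonucleoproteins (snoRNPs) guide its ribose methylation (box C/D) and pseudouridylation (box H/ACA), and large assemblies of processing factors fold, cut and pack it with ribosomal proteins into the small and the large subunit. Plasma cells make antibody at a very high rate and therefore lean on their ribosomes, while the pathway as a whole is best known for its activity in growing and dividing cells, where MYC is a main activator of its genes.

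RNA of the pathway took a larger share of the IgG1 libraries. On the FPKM scale, a level per transcript length and per library size, the 50 genes summed to 1603, 1686, 1675, 1701 and 1745 in the IgG1 libraries, against 1253, 1250, 1238, 1295 and 1277 in the IgM libraries. Every IgG1 library lay above every IgM library, with means of 1680 ± 51.6 in IgG1 and 1260 ± 23.0 in IgM libraries (SD, n = 5 each). As a share of all FPKM outside immunoglobulin genes, the genes took 0.33% ± 0.00828 in IgG1 libraries and 0.252% ± 0.00746 in IgM libraries. Leaving out Npm1, the most abundant of them, the sums ran from 1415 to 1524 in IgG1 libraries and from 1098 to 1139 in IgM libraries. The level of the median gene was 23.2 ± 0.2 FPKM in IgG1 and 17.5 ± 1.01 FPKM in IgM libraries.

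Gene by gene, 25 of the 50 rose in IgG1 cells, 1 fell and 24 did not pass. The test was limma on log2(FPKM + 1), two-sided, with Benjamini-Hochberg adjustment over all 9900 genes at 0.05, and differences are given as IgG1 minus IgM on that scale. Among all tested genes 18.1% rose and 20.2% fell, beside the 50% of these genes that rose and the 2% that fell. That background was close to even over all levels together, but not at low or at high levels, as given below. For 17 of the 50, every IgG1 value exceeded every IgM value, a pattern found in 13.1% of all tested genes. None had all IgG1 values below all IgM values, which held for 13.3% of tested genes. Including the genes that did not pass, 46 had a positive difference, against 45.6% of tested genes, and the median difference was 0.35, against -0.05 over all tested genes. Cell cycle genes moved with them, 21 of 25 higher, and plasma cell markers against them, 9 of 10 lower, and the part of either in the result was not tested. With quantile normalization the median difference was 0.45 for the 50 genes and 0.06 over all tested genes, and the split of calls over all genes moved to 2182 higher and 1510 lower, against 1791 and 2001 without it.

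**Figure D1:**
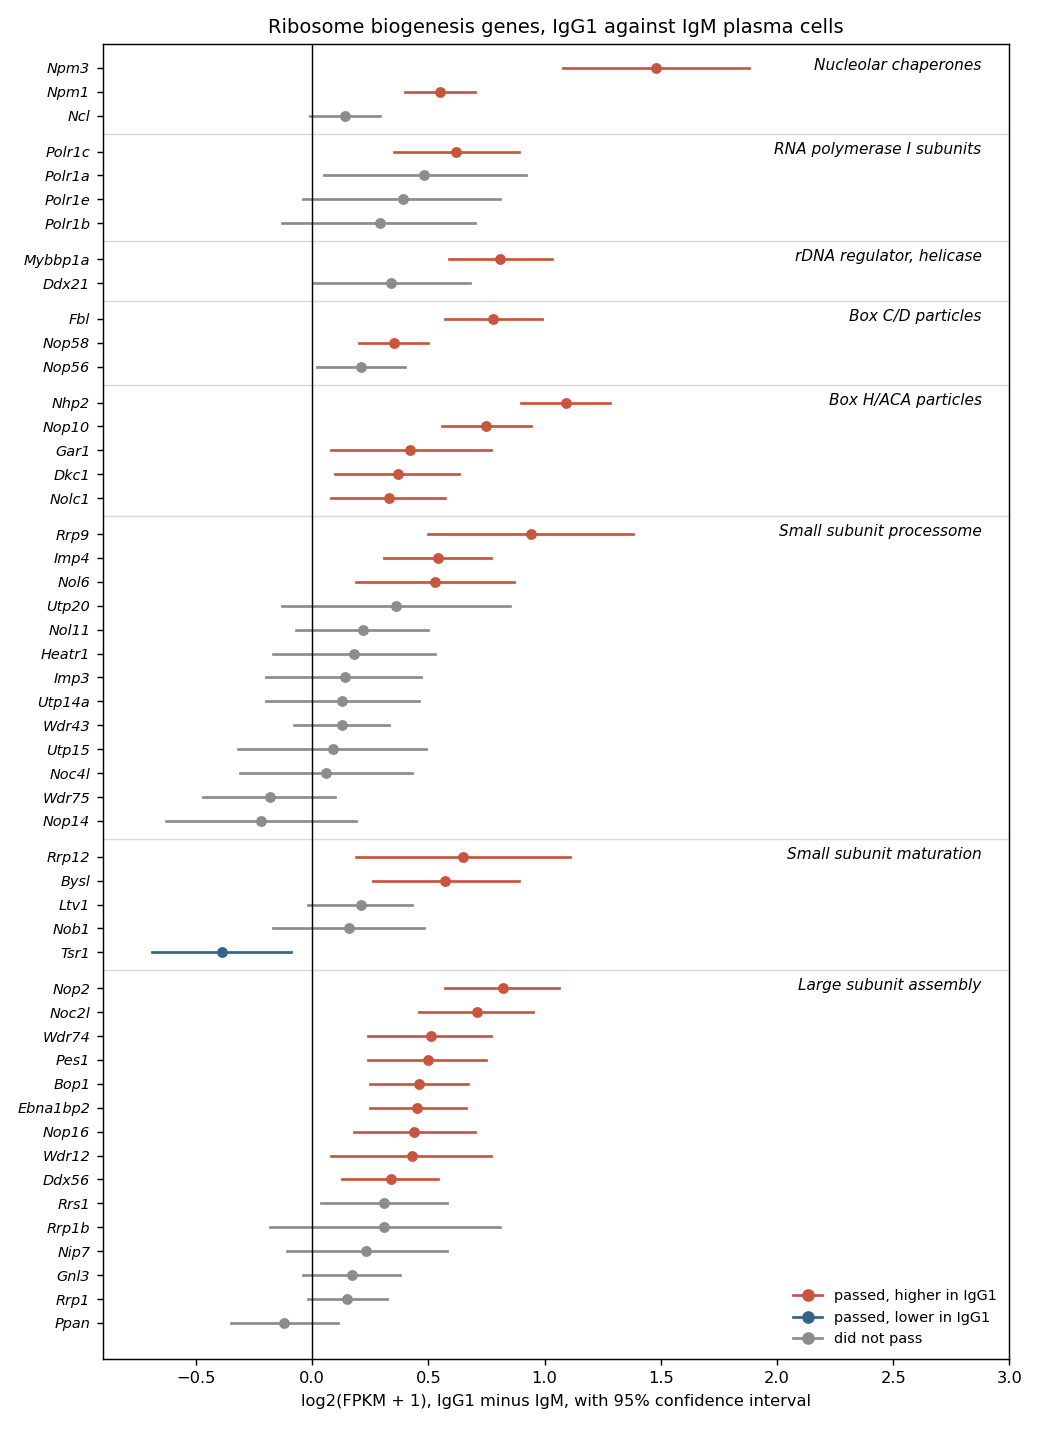
Difference between IgG1 and IgM plasma cells for each of the 50 genes, in log2(FPKM + 1), grouped by role. Points are limma estimates and bars their 95% confidence intervals, in red for the 25 genes that passed higher in IgG1, blue for Tsr1, which passed lower, and grey for the 24 that did not pass. Npm3 lies farthest right at 1.48 and Tsr1 farthest left at -0.39.

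Nucleophosmin (Npm1), a nucleolar histone chaperone, and its relative Npm3 both rose, and Npm3 showed the largest difference of the 50. Npm3 (chromosome 19, 45747734-45749591, minus strand, GRCm38) was at 34.0, 23.6, 24.5, 16.6 and 15.5 FPKM in the IgG1 libraries, against 5.62, 7.50, 9.42, 7.81 and 6.30 FPKM in the IgM libraries. The lowest IgG1 library was above the highest IgM library, although the IgG1 libraries differed among themselves by more than 2-fold. The ratio of means was 3.11 and the log2 difference 1.48 ± 0.19 (SE, limma adjusted p = 7.95e-06). Npm1, which also takes part in pre-rRNA cleavage and in nuclear export of subunits, had 188, 215, 233, 226 and 221 FPKM in IgG1 libraries, against 150, 140, 140, 170 and 139 FPKM in IgM libraries. The groups did not overlap, and the difference was 0.55 ± 0.07 (SE, limma adjusted p = 7.30e-06). With the larger gain of Npm3, the ratio of Npm3 to Npm1 in FPKM was 0.108 (0.0699 to 0.181) in IgG1 and 0.05 (0.0374 to 0.0673) in IgM libraries. Nucleolin (Ncl), an abundant binder of nascent rRNA, had 72.3, 81.2, 73.5, 78.9 and 77.3 FPKM in IgG1 libraries, against 68.1, 61.0, 72.0, 73.3 and 73.0 FPKM in IgM libraries. The ranges met at their edges, and with 0.14 (limma adjusted p = 0.136) it did not pass.

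Npm1 and Npm3 both have processed pseudogene copies. Of all 50-base words of the longest transcript, 40.9% for Npm1 and 31.9% for Npm3 also occur in another gene, and among copies with a value Npm3-ps1 reached 0.256 FPKM at most in a library and Gm14681, a copy of Npm1, 0.719 FPKM. Gm9118, the copy with the most words of Npm1, was not analysed here. Of the 50 genes, 27 shared no such word.

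**Figure D2:**
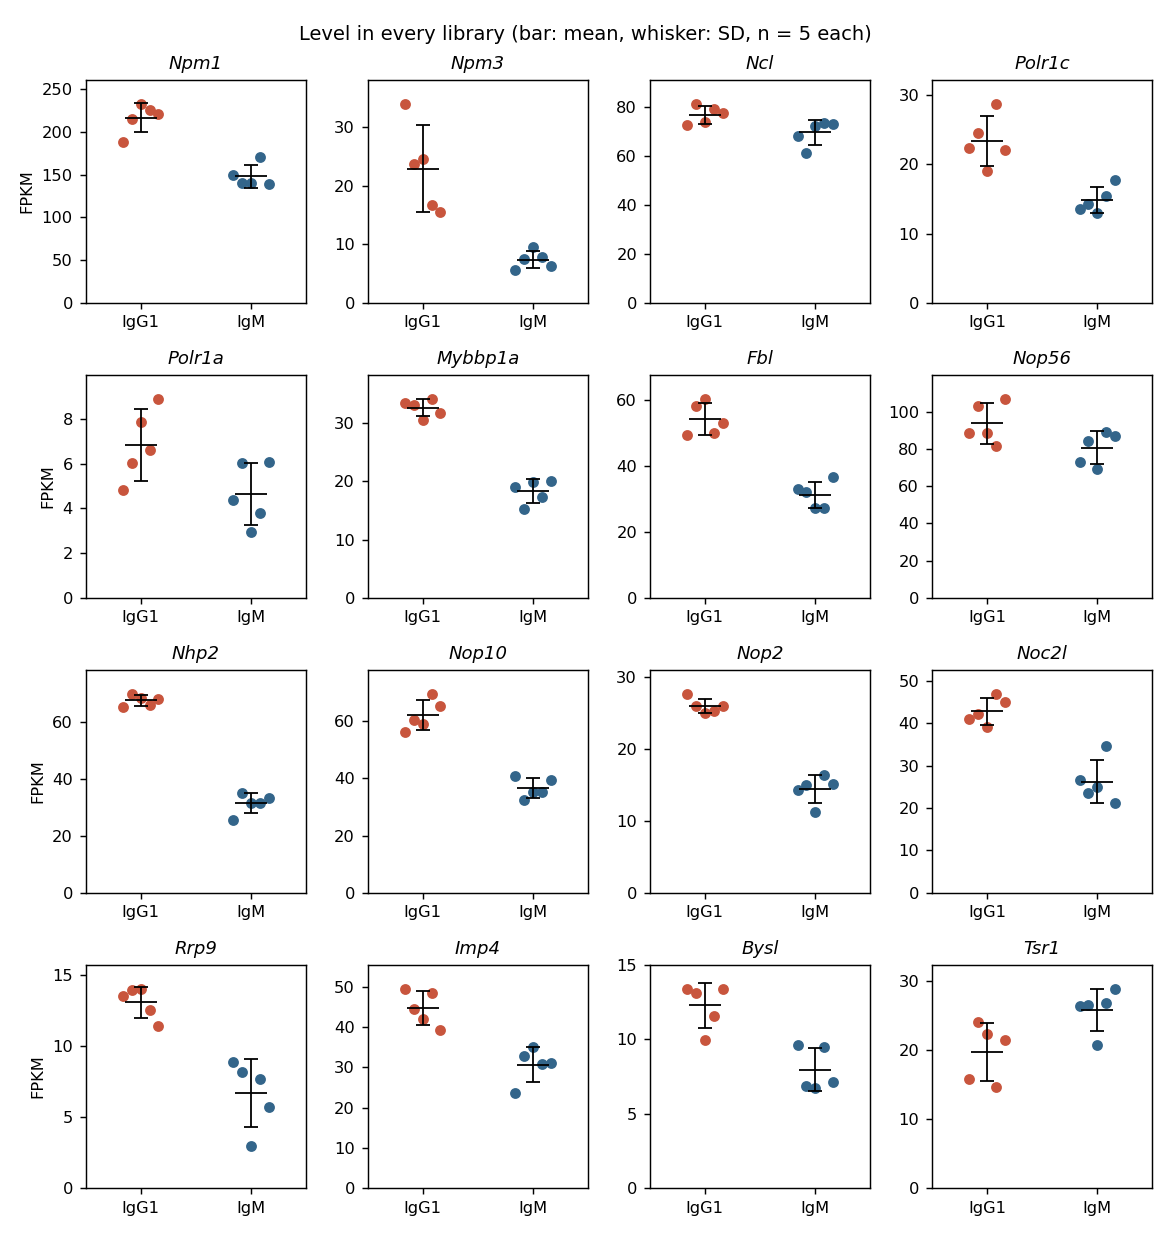
FPKM in each library for members of every role group, with IgG1 in red on the left and IgM in blue on the right of each panel. Points are single libraries, with a bar at the mean and whiskers of 1 SD (n = 5 each). In the panels for Npm3, Nhp2, Fbl and Mybbp1a no IgG1 point falls to the level of an IgM point, while for Tsr1 the groups overlap.

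Of the 4 RNA polymerase I genes 1 rose (25.0%, against 18.1% of all tested genes), which was Polr1c. It encodes a subunit that RNA polymerase III also contains, and had 22.4, 24.5, 19.1, 28.8 and 22.1 FPKM in IgG1 libraries, against 13.6, 14.3, 13.0, 15.5 and 17.7 FPKM in IgM libraries. All 5 IgG1 values were above the IgM values, with a difference of 0.62 ± 0.13 (SE, limma adjusted p = 9.30e-04). The other members are subunits of polymerase I alone, and none of them passed. Polr1a, the largest subunit, had 4.81, 6.04, 7.89, 6.61 and 8.92 FPKM in IgG1 libraries, against 4.40, 6.06, 2.95, 3.79 and 6.09 FPKM in IgM libraries. Of the 5 IgG1 values 3 lay above all IgM values, and the ranges overlapped (difference 0.48, limma adjusted p = 0.0717), and Polr1a passed under 5 of 22 alternatives. Polr1e had 12.2, 13.9, 10.7, 19.1 and 24.8 FPKM in IgG1 libraries, against 13.8, 11.3, 11.2, 8.17 and 14.5 FPKM in IgM libraries. Its IgG1 replicates 4 and 5 were above all other libraries and the rest were mixed (0.39, limma adjusted p = 0.145). Polr1b, the partner of Polr1a in the catalytic core, averaged 6.54 ± 1.68 FPKM in IgG1 and 5.14 ± 1.25 FPKM in IgM libraries (0.29, limma adjusted p = 0.265).

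Mybbp1a, a nucleolar protein that binds MYB and takes part in rRNA transcription and processing, showed tight groups. Its values were 33.4, 33.2, 30.6, 34.2 and 31.7 FPKM in IgG1 libraries, against 19.0, 15.2, 19.9, 17.3 and 20.1 FPKM in IgM libraries. Each group spanned only a few FPKM and a wide gap lay between them, with a difference of 0.81 ± 0.10 (SE, limma adjusted p = 8.16e-06). Ddx21, an RNA helicase of the nucleolus, had 13.9, 14.7, 14.0, 19.9 and 19.9 FPKM in IgG1 libraries, against 11.1, 15.3, 9.42, 13.1 and 15.1 FPKM in IgM libraries. Again IgG1 replicates 4 and 5 were highest and the others overlapped with IgM, and it did not pass (0.34, limma adjusted p = 0.0955).

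The box C/D proteins among the 50 are the methyltransferase fibrillarin (Fbl) and the core proteins Nop56 and Nop58. Another core protein, Snu13, is outside the 50 and is given below. Fbl had 49.5, 58.4, 60.5, 50.1 and 53.0 FPKM in IgG1 libraries, against 33.1, 32.0, 27.3, 27.4 and 36.6 FPKM in IgM libraries. The groups were well apart, with a difference of 0.78 ± 0.10 (SE, limma adjusted p = 6.91e-06). Nop58 rose less: it had 84.3, 93.0, 90.5, 97.3 and 103 FPKM in IgG1 libraries, against 73.6, 68.4, 79.0, 70.8 and 75.0 FPKM in IgM libraries, without overlap (0.35 ± 0.07 SE, limma adjusted p = 8.65e-04). Nop56, at a similar level, had 88.3, 103, 88.7, 81.4 and 107 FPKM in IgG1 libraries, against 73.1, 84.4, 69.3, 89.1 and 87.0 FPKM in IgM libraries. Its groups overlapped and it did not pass (0.21, limma adjusted p = 0.0712). In FPKM the ratio of Fbl to Nop58 was 0.583 ± 0.0688 in IgG1 and 0.428 ± 0.0590 in IgM libraries with no overlap, whereas that of Nop56 to Nop58 was 1.00 ± 0.101 in IgG1 and 1.10 ± 0.164 in IgM libraries with overlapping ranges (SD, n = 5 each).

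The box H/ACA genes were the role group in which every member rose, 5 of 5, against 18.1% of all tested genes. Nhp2, a core protein of these particles, had the smallest p-value of the 50. It was at 65.0, 69.7, 68.3, 65.9 and 68.0 FPKM in IgG1 libraries, against 25.6, 35.0, 31.3, 31.5 and 33.1 FPKM in IgM libraries. The IgG1 libraries were nearly alike and all stood far above the IgM libraries, with a ratio of means of 2.15 and a difference of 1.09 ± 0.09 (SE, limma adjusted p = 3.53e-08). Nop10, another core protein, had 56.1, 60.5, 59.2, 69.6 and 65.5 FPKM in IgG1 libraries, against 40.7, 32.4, 35.3, 35.1 and 39.6 FPKM in IgM libraries. Again there was no overlap (0.75 ± 0.09 SE, limma adjusted p = 3.14e-06).

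Smaller differences were found for the pseudouridine synthase itself, Dkc1. It had 24.3, 23.3, 30.8, 20.7 and 28.3 FPKM in IgG1 libraries, against 18.6, 17.9, 16.8, 21.5 and 22.2 FPKM in IgM libraries. IgG1 replicate 4 fell within the IgM range (0.37 ± 0.13 SE, limma adjusted p = 0.0270). The last core protein, Gar1, averaged 22.2 ± 3.05 FPKM in IgG1 and 16.6 ± 4.01 FPKM in IgM libraries (0.42, limma adjusted p = 0.0470). Nolc1, a chaperone of snoRNPs, averaged 27.8 ± 3.38 FPKM in IgG1 and 22.0 ± 2.73 FPKM in IgM libraries (0.33, limma adjusted p = 0.0329). These 3 calls depended on single libraries. Dkc1 ended past 0.05 without IgG1 replicate 3 or 5 or without IgM replicate 1, 2 or 3 (limma adjusted p up to 0.0789), and Nolc1 without IgG1 replicate 1, 4 or 5 or IgM replicate 1, 2, 4 or 5 (up to 0.0824). Gar1 kept its call only without IgM replicate 2 or 4 or IgG1 replicate 3 among single libraries left out, and its limma adjusted p reached 0.125 without IgM replicate 3, where its difference was 0.27. The ratio of Nhp2 to Dkc1 in FPKM was 2.70 ± 0.402 in IgG1 and 1.63 ± 0.260 in IgM libraries, with no overlap, while that of Gar1 to Dkc1 ran from 0.586 to 1.23 in IgG1 and from 0.598 to 1.04 in IgM libraries.

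Promoters are shown for 3 members with large gains in separate branches of the pathway, Mybbp1a, Nop2 (an rRNA methyltransferase of the large subunit) and Nhp2, and for Tsr1, the member that fell, to set their promoter letters side by side. The sequences are RefSeq's on GRCm38.p6, each 300 bases on the plus strand in the direction of transcription, from 250 bases before to 50 bases after the gene's start, at chr11:72441077-72441376 for Mybbp1a, chr6:125131633-125131932 for Nop2, chr11:51619523-51619822 for Nhp2 and chr11:74897830-74898129 for Tsr1. Capitals mark the E-box CACGTG, which MYC with MAX and other factors can bind, and CCGGAAG, the core of ETS factor sites. Only promoters that hold such letters are printed. Npm3, Rrp9 and Nop10 also had large gains (1.48, 0.94 and 0.75), but their promoters hold neither motif and are not shown.
Mybbp1a: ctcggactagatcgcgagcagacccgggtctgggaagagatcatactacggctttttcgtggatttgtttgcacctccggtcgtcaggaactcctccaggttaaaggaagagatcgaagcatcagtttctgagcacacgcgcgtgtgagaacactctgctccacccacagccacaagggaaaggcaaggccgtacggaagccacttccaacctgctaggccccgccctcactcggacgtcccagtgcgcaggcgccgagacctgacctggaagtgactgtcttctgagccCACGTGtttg
Nop2: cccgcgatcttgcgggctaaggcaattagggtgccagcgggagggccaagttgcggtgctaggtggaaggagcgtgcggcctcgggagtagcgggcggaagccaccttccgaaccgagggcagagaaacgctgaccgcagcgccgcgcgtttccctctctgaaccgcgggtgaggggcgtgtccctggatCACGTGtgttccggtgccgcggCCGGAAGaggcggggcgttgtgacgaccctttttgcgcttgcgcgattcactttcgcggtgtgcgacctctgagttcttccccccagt
Nhp2: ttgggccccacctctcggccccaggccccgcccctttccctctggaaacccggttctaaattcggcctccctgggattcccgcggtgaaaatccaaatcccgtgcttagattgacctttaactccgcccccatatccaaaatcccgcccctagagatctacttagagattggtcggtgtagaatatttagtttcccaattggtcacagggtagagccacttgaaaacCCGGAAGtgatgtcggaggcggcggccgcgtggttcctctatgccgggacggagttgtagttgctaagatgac
Tsr1: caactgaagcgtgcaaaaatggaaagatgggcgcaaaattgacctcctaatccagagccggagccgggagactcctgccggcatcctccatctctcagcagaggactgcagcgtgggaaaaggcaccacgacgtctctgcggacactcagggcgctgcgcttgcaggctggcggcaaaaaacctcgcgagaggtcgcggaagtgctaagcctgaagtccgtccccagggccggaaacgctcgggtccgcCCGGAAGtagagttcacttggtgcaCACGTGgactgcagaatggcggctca
The E-box begins 40 bases after the start in Mybbp1a, 60 bases before it in Nop2 and 24 bases after it in Tsr1, and is not in the window of Nhp2. The ETS core begins 38 bases before the start in Nop2, 23 bases before it in Nhp2 and 1 base before it in Tsr1.

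Both strands were searched for these letters. A RefSeq promoter was at hand for 44 of the 50 genes. Npm1, Fbl, Bop1, Nol6, Rrp12 and Rrs1 are named only. Some genes have several promoters in the table, and a gene was counted where any of them held the letters. The E-box was in 9 of 44 genes (20.5%), against 8.09% of all 27025 genes with a promoter, and it was in 4 of the 20 genes that rose and in 5 of the other 24. The ETS core was in 14 of 44 genes (31.8%), against 9.93% of all genes, with 8 of the 20 and 6 of the other 24. All 44 were tested genes, whereas the 27025 include many that were not among the 9900 tested. Shares among tested genes alone were not counted. By promoter, the E-box was in 18.8% of the 48 promoters of these genes and 7.15% of all 32851, and the ETS core in 31.2% and 8.86%. Nop2, Tsr1 and Ltv1 held both, and the 2 motifs share no letters in the promoters printed above. The YY1 word AAGATGGCG was in a promoter of Imp4 and of 1.64% of all genes. The NRF1 palindrome and the palindromic CGCG element, both without a mismatch, were in 0 of the 44 genes, against 1.07% and 0.525% of all genes. A match is a description of letters, and the promoter of the member that fell held the same 2 motifs as that of Nop2, which rose.

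The small subunit processome, a large assembly, forms on the nascent precursor around the U3 snoRNA. Of its 13 members 3 rose (23.1%, against 18.1% of all tested genes) and the other 10 did not pass, with a median difference of 0.14. Rrp9, the U3-specific snoRNP protein, had 13.5, 13.9, 14.0, 12.5 and 11.4 FPKM in IgG1 libraries, against 8.84, 8.18, 2.97, 7.63 and 5.72 FPKM in IgM libraries. No values overlapped, and IgM replicate 3 was the lowest (0.94 ± 0.21 SE, limma adjusted p = 0.00160). Imp4, which joins U3 to the precursor, had 49.5, 44.5, 42.0, 48.4 and 39.3 FPKM in IgG1 libraries, against 23.6, 32.8, 35.0, 30.9 and 31.1 FPKM in IgM libraries (0.54 ± 0.11 SE, limma adjusted p = 7.36e-04). Its groups were apart as well, and Imp3, its partner in that complex, averaged 26.7 ± 7.08 FPKM in IgG1 and 23.8 ± 3.69 FPKM in IgM libraries and did not pass (0.14, limma adjusted p = 0.517). Nol6, counterpart of yeast Utp22, had 12.1, 10.5, 7.63, 8.47 and 8.10 FPKM in IgG1 libraries, against 5.88, 7.11, 5.09, 6.16 and 6.37 FPKM in IgM libraries. The lowest IgG1 value was just above the highest IgM value (0.53 ± 0.16 SE, limma adjusted p = 0.0151).

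The members that work on early transcription-linked steps, Heatr1, Utp15, Nol11, Wdr43 and Wdr75, had differences between -0.18 (Wdr75) and 0.22 (Nol11), and none passed. The same held for the processing factors Utp14a (0.13), Utp20 (0.36), Noc4l (0.06) and Nop14 (-0.22). Limma's 95% confidence interval reached from -0.47 to 0.10 for Wdr75 and from -0.63 to 0.19 for Nop14, so differences of either sign remain within them. The lowest level of all 50 was that of Utp20, with 2.55 ± 0.887 FPKM in IgG1 and 1.77 ± 0.690 FPKM in IgM libraries (SD, n = 5 each).

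Late small subunit factors went in both directions. Bysl, counterpart of yeast Enp1, had 13.4, 13.1, 9.98, 11.6 and 13.4 FPKM in IgG1 libraries, against 9.59, 6.86, 6.74, 9.49 and 7.11 FPKM in IgM libraries. The groups were narrowly apart (0.57 ± 0.15 SE, limma adjusted p = 0.00590), although 361 exonic bases of Bysl are also exonic in Ccnd3 on the opposite strand, and Ccnd3 averaged 27.3 FPKM in IgG1 and 15.8 FPKM in IgM libraries. These libraries do not keep strand, so reads from such shared bases cannot be told apart. Of the 50 genes, 20 share exonic bases with a gene on the other strand, and for 6 of them that gene averaged at least 5 FPKM. Rrp12 had 7.29, 5.78, 5.28, 5.75 and 3.38 FPKM in IgG1 libraries, against 4.02, 3.83, 1.72, 3.40 and 2.78 FPKM in IgM libraries. IgG1 replicate 5 lay among the IgM values (0.65 ± 0.22 SE, limma adjusted p = 0.0248), and the call ended without IgG1 replicate 1, 2 or 4 or without IgM replicate 3 (limma adjusted p up to 0.0689).

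Tsr1, a GTPase-like factor of cytoplasmic small subunit precursors, was the one member that fell. It had 15.8, 24.1, 22.4, 14.7 and 21.5 FPKM in IgG1 libraries, against 26.4, 26.5, 20.7, 26.9 and 28.9 FPKM in IgM libraries. IgM replicate 3 lay among the IgG1 values, and IgG1 replicates 1 and 4 were the lowest (-0.39 ± 0.14 SE, limma adjusted p = 0.0363). The call was lost under 11 of 22 alternatives, among them leaving out IgG1 replicate 1 or 4 or IgM replicate 1, 2, 4 or 5 (limma adjusted p up to 0.103), while the difference stayed between -0.47 and -0.30. Of the exonic bases of Tsr1, 32.3% are also exonic in Srr on the opposite strand, which averaged 3.19 FPKM in IgG1 and 4.38 FPKM in IgM libraries. Nob1, the endonuclease that makes the final cut of small subunit rRNA, and Ltv1, a late assembly factor, did not pass. Nob1 averaged 14.8 ± 2.69 FPKM in IgG1 and 13.2 ± 2.70 FPKM in IgM libraries, and Ltv1 averaged 31.1 ± 3.02 FPKM in IgG1 and 26.8 ± 2.90 FPKM in IgM libraries (SD, n = 5 each).

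Large subunit assembly, the largest role group, held the most genes that rose by number, 9 of 15, with a median of 0.43. This is a share of 60.0%, against 18.1% of all tested genes. Nop2, an rRNA cytosine methyltransferase, led them with 27.6, 25.9, 25.0, 25.2 and 25.9 FPKM in IgG1 libraries, against 14.2, 15.0, 11.2, 16.4 and 15.1 FPKM in IgM libraries. The IgG1 libraries were nearly alike and well above the IgM libraries (0.82 ± 0.12 SE, limma adjusted p = 2.23e-05). Noc2l, whose yeast counterpart Noc2 escorts large subunit precursors, had 40.9, 42.2, 39.0, 46.9 and 44.9 FPKM in IgG1 libraries, against 26.6, 23.6, 24.9, 34.5 and 21.2 FPKM in IgM libraries. The groups did not overlap, with IgM replicate 4 closest to the IgG1 values (0.71 ± 0.12 SE, limma adjusted p = 1.05e-04). Ebna1bp2, counterpart of yeast Ebp2, had 60.1, 57.9, 58.3, 67.1 and 64.2 FPKM in IgG1 libraries, against 45.3, 45.7, 55.7, 41.3 and 36.8 FPKM in IgM libraries (0.45 ± 0.10 SE, limma adjusted p = 0.00135). Here too the groups were apart, though IgM replicate 3 came close to the lowest IgG1 value.

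The genes for all 3 proteins of the PeBoW complex, which large subunit rRNA processing needs, rose in RNA. Pes1 averaged 28.4 ± 2.67 FPKM in IgG1 and 19.9 ± 3.04 FPKM in IgM libraries (0.50, limma adjusted p = 0.00315). Bop1 averaged 35.4 ± 4.31 FPKM in IgG1 and 25.4 ± 1.45 FPKM in IgM libraries (0.46, limma adjusted p = 0.00152), and its call ended with length and GC trends removed (0.21, limma adjusted p = 0.13; range over the alternatives 6.27e-04 to 0.13). Wdr12 averaged 14.6 ± 3.13 FPKM in IgG1 and 10.6 ± 2.1 FPKM in IgM libraries (0.43, limma adjusted p = 0.0493), overlapped between the groups and was just inside the threshold. Its call ended without IgG1 replicate 2, 3 or 5 or without IgM replicate 2, 3 or 4 (limma adjusted p up to 0.140). Ratios within the complex overlapped between the groups. The ratio of Bop1 to Pes1 in FPKM was 1.26 ± 0.202 in IgG1 and 1.31 ± 0.282 in IgM libraries, and that of Wdr12 to Pes1 was 0.519 ± 0.123 in IgG1 and 0.539 ± 0.112 in IgM libraries (SD, n = 5 each).

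Wdr74, a partner of the ATPase NVL (0.51, limma adjusted p = 0.00366), Nop16 (0.44, limma adjusted p = 0.00973) and the helicase Ddx56 (0.34, limma adjusted p = 0.0115) rose with overlapping groups. The remaining 6 members of the group did not pass. They were Rrs1 (0.31), which in yeast helps to bring in the ribonucleoprotein of the smallest large-subunit rRNA, Rrp1b (0.31), Nip7 (0.23), the nucleostemin gene Gnl3 (0.17), Rrp1 (0.15) and Ppan (-0.12). Rrp1 was among the 5 most abundant members, with 74.5, 84.7, 73.8, 97.8 and 83.5 FPKM in IgG1 libraries and 68.2, 76.7, 77.1, 73.1 and 77.5 FPKM in IgM libraries. The 2 groups overlapped over most of their range (limma adjusted p = 0.169).

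**Figure D3:**
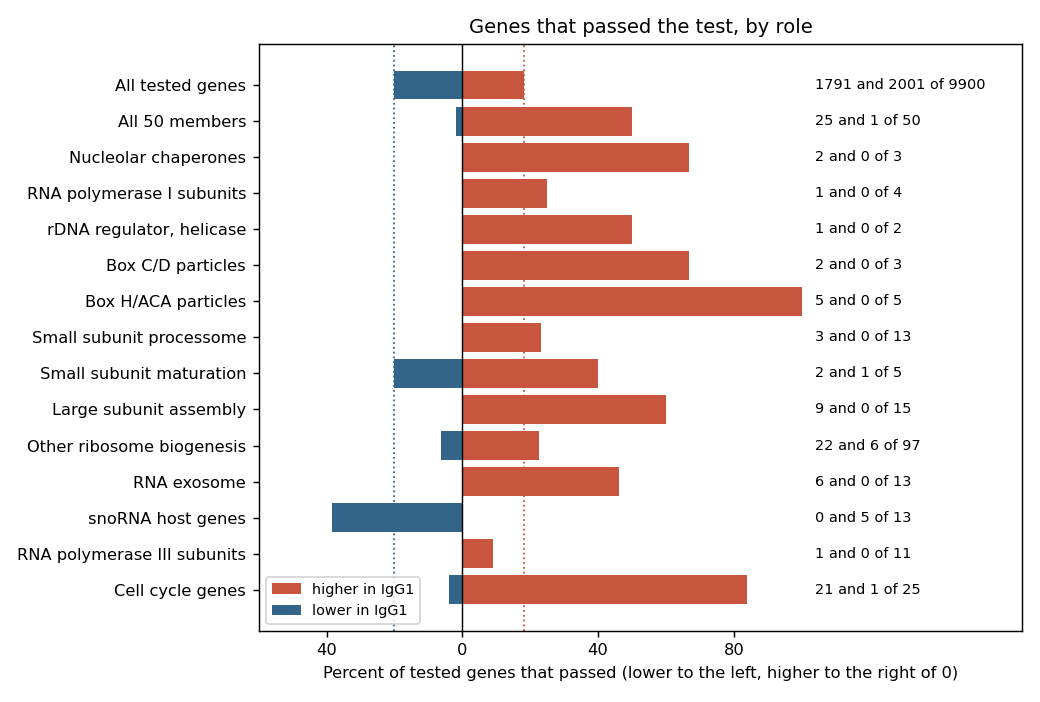
Percent of tested genes that passed limma's test higher in IgG1 (red, right of 0) or lower (blue, left of 0), for each role group, for other lists and for all tested genes, with the counts written at the right. Dotted lines mark the shares over all tested genes, 18.1% higher and 20.2% lower. Box H/ACA particles reach 5 of 5 higher, the small subunit processome 3 of 13.

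The genes that rose differed from the rest in level and in transcript features, which are given here without a test. Their median level over all libraries was 24.9 FPKM, against 14.0 FPKM for the 25 others and 11.1 FPKM for all tested genes. Their longest transcripts had a median GC content of 53.7% and a median length of 2597 bases, against 47.3% and 3226 bases for the others, and 49.1% and 3092 bases for all tested genes. Level goes with the share of calls in the whole data set: 5.83% of tested genes rose at mean levels of 1 to 10 FPKM, 14.5% at 10 to 20, 23.7% at 20 to 50 and 49.0% at 50 FPKM or more. The shares that fell in these ranges were 19.1%, 22.2%, 22.0% and 19.5%. Within these same ranges 3 of 11, 5 of 13, 13 of 19 and 4 of 7 of the ribosome biogenesis genes rose. At 50 FPKM and above, their share was therefore near that of all genes. With trends of length and GC content removed in each library, 22 members rose, and the calls of Bop1, Ddx56, Nop16, Wdr74, Gar1, Nolc1, Rrp12 and Tsr1 ended while Ncl (0.42, limma adjusted p = 6.82e-05), Polr1a, Utp20 and Ddx21 passed. This removal used the longest annotated transcript of each gene, 8202 bases for Ncl, which need not be the transcript that was measured.

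**Figure D4:**
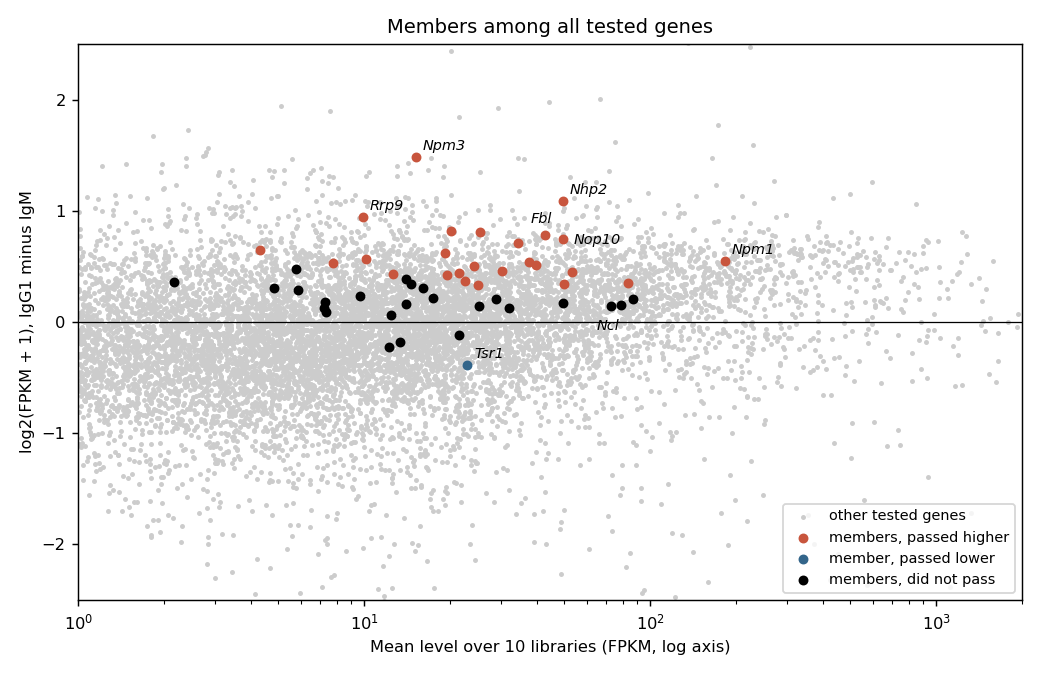
Difference IgG1 minus IgM in log2(FPKM + 1) against the mean level over 10 libraries (FPKM, log axis) for the tested genes in grey and the 50 members in red (passed higher), blue (passed lower) or black (did not pass). The axes leave out 121 genes beyond 2000 FPKM or beyond 2.5 in either direction. Most members lie above the line at 0, and those that rose sit mainly at 20 FPKM or more.

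Replicates differed about as much as for other genes. The median coefficient of variation of the 47 members with a mean of at least 5 FPKM was 12.2% in IgG1 and 14.1% in IgM libraries, beside 14.3% in IgG1 and 13.6% in IgM libraries over the 6865 tested genes at that level. Without any one library, between 21 and 24 members rose, and 16 of the 26 calls held under all 22 alternatives.

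Ribosome biogenesis genes outside the 50 gave a more mixed picture. Of the 97 that were tested, 22 rose and 6 fell (median 0.11), a share of 22.7% higher near the 18.1% of all tested genes, and their summed level was 2220 to 2400 FPKM in IgG1 and 2030 to 2130 FPKM in IgM libraries. Smallest in p was Snu13, the RNA-binding core protein of box C/D particles, which averaged 96.7 ± 1.68 FPKM in IgG1 and 64.3 ± 3.68 FPKM in IgM libraries (0.58, limma adjusted p = 1.50e-06). Mrto4, Eif6 and Wdr18, all factors of the large subunit, rose by 0.88, 0.59 and 0.80. Those that fell were Nvl, Gnl2, Riok1, Utp3, Xrn2 and Riok3. The RNA exosome, which trims rRNA precursors, had 6 genes that rose among 13 (46.2%, against 18.1% of all tested genes). The other 7 did not pass, and Exosc8 led those that rose (0.63, limma adjusted p = 6.35e-05). Of 11 subunits of RNA polymerase III, 1 rose (9.09%, against 18.1% of all tested genes), Crcp (0.30, limma adjusted p = 0.0304). Their median was -0.01.

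A list of non-coding genes that host snoRNAs in their introns was read as well. Of 13 tested, 5 fell (against 20.2% of all tested genes) and 8 did not pass, with a median of -0.36 and positive differences in 4. Gas5, which carries many box C/D snoRNAs, had 42.0, 55.6, 52.7, 50.4 and 56.9 FPKM in IgG1 libraries, against 125, 120, 133, 135 and 118 FPKM in IgM libraries. All IgG1 libraries were far below all IgM libraries (-1.28 ± 0.08 SE, limma adjusted p = 3.11e-09). Snhg5 averaged 10.7 ± 2.78 FPKM in IgG1 and 30.3 ± 4.31 FPKM in IgM libraries (-1.43, limma adjusted p = 8.76e-07), and Snhg20, Zfas1 and Snhg15 fell as well. The list summed to 179 to 236 FPKM in IgG1 and 298 to 335 FPKM in IgM libraries. These values are of the host transcripts and not of the snoRNAs cut from their introns.

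Myc rose too. It had 17.7, 20.7, 16.2, 19.8 and 15.6 FPKM in IgG1 libraries, against 8.18, 12.7, 7.46, 12.3 and 11.9 FPKM in IgM libraries. The groups were apart (0.74 ± 0.16 SE, limma adjusted p = 0.00115). Within the network of its partners and antagonists, 8 genes were tested, and 2 of them fell, against 20.2% of all tested genes, Mga and Mlxip (-1.0 and -0.50, limma adjusted p = 0.00106 and 0.00952).

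**Figure D5:**
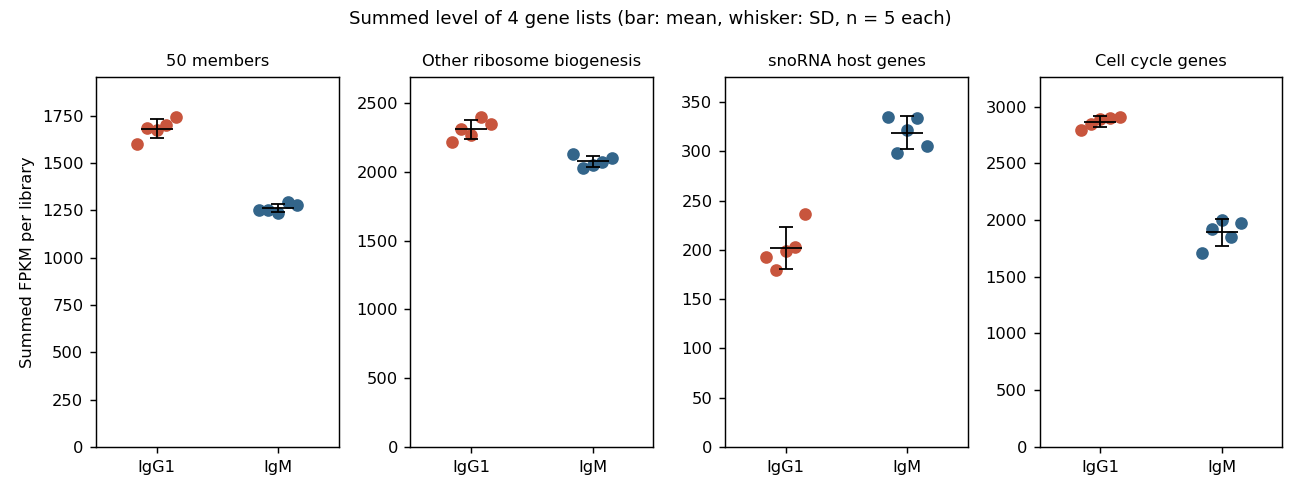
Summed FPKM of 4 gene lists in each library, IgG1 in red on the left and IgM in blue on the right, with the mean as a bar and 1 SD as whiskers (n = 5 each). The sum of the 50 members was 1603 to 1745 in IgG1 and 1238 to 1295 in IgM libraries. Other ribosome biogenesis genes and cell cycle genes also summed higher in IgG1, and snoRNA host genes lower.

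Other properties of the libraries moved with these genes. Over all tested genes, the background for each list below, 18.1% rose and 20.2% fell. Of 25 cell cycle genes, 21 rose (84.0%), 1 fell (Cenpf) and 3 did not pass (Mki67, Aurkb and Tpx2), with a median of 0.62. The median level of this list was 66.4 FPKM, and 49.0% of all tested genes at 50 FPKM or more rose. Mki67 tended lower in IgG1, with 30.5 to 39.7 FPKM in IgG1 and 38.8 to 49.7 FPKM in IgM libraries. The 25 genes summed to 2790 to 2910 FPKM in IgG1 and 1710 to 2000 FPKM in IgM libraries. Mcm7, of the replicative helicase, averaged 80.4 ± 5.25 FPKM in IgG1 and 38.6 ± 2.74 FPKM in IgM libraries. Of 10 plasma cell markers, Xbp1 rose and 9 fell, and they summed to 30600 to 34300 FPKM in IgG1 and 47900 to 53200 FPKM in IgM libraries. Jchain made up most of this sum, and without it the other 9 came to 10700 to 11400 FPKM in IgG1 and 11600 to 12900 FPKM in IgM libraries. All 10 were detected in every library, with Sdc1 at 242 to 276 FPKM in IgG1 and 266 to 299 FPKM in IgM libraries, Prdm1 at 24.8 to 32.2 FPKM in IgG1 and 48.7 to 55.3 FPKM in IgM libraries, and Tnfrsf17 at 42.2 to 51.8 FPKM in IgG1 and 121 to 146 FPKM in IgM libraries. Mature B cell markers summed to 78.2 to 95.8 FPKM in IgG1 and 117 to 142 FPKM in IgM libraries, with 3 of 3 tested lower. Germinal centre markers summed to 88.3 to 106 FPKM in IgG1 and 93.6 to 115 FPKM in IgM libraries, with Gcsam lower among 5 tested. T cell markers summed to 2.40 to 3.84 FPKM in IgG1 and 4.10 to 9.31 FPKM in IgM libraries, with Cd4 higher and Trac lower of 3 tested. Myeloid markers came to 15.1 to 23.3 FPKM in IgG1 and 32.6 to 39.9 FPKM in IgM libraries, with Cd68 lower among 4 tested and S100a8, S100a9, Mpo and Elane at 0 in every library. Cd68 made up most of this sum, and the other 11 came to 4.44 to 8.24 FPKM in IgG1 and 2.62 to 6.95 FPKM in IgM libraries. Erythroid markers reached at most 4.23 FPKM in an IgG1 and 5.60 FPKM in an IgM library, with none tested. Stromal and endothelial markers summed to 4.63 to 7.77 FPKM in IgG1 and 4.69 to 7.13 FPKM in IgM libraries, with Col1a1, Col1a2 and Pdgfrb at 0. Estimated depth was 26600000 to 38600000 fragments in IgG1 and 26900000 to 31300000 fragments in IgM libraries, and 13286 to 13961 identifiers were above 0 in IgG1 against 15121 to 15800 in IgM libraries. The part of other cell types and of depth in the differences of the ribosome biogenesis genes was not tested.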

How the data were processed

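RNA was measured in 10 libraries, 5 IgG1 and 5 IgM, grouped by sample title. Per the labels' protocols, total RNA came from the miRNeasy Micro kit and SMART-Seq mRNA HT LP (Takara) served for the libraries, a kit for small inputs whose full-length cDNA carries no strand information. HISAT2 2.1.0, Cufflinks 2.2.1, Cuffdiff and GRCm38 are named in the submitters' processing notes. For their roles, settings and annotation, details were not given in the sources used here. Values were deposited as FPKM, per the file headers. FPKM is relative to each library, so abundant immunoglobulin transcripts lower the rest. No counts were given. Relative depth was read from the smallest steps among low FPKM values, taking fragments as 200 bases long, and supports no counting interval.

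Of 47719 identifiers, 47305 matched GENCODE M21. No files were identical. Genes whose mean reached 1 FPKM were tested on log2(FPKM + 1) with limma 3.58.1 under R 4.3.3 (trend and robust, group as the only term). The pseudocount understates changes of low genes. Python 3.11.15 was used with pandas 2.3.3, with numpy 2.4.6 and, for plots, with matplotlib 3.10.9. The limma step was tested on simulated data. Members and gene lists were chosen with earlier results of these data known.

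Values in every library are given for up to 3 members a role group by smallest p, the 10 largest differences in each direction among those that passed and the 5 highest levels. Of other lists up to 4 genes by smallest p are named, and Myc. Other names (Sdc1, Prdm1, Xbp1, Cenpf, Mki67, Aurkb, Tpx2, Snhg15, Polr1d, Cd3eap and the genes of the pathway that fell) were chosen after their values were seen. There were 22 alternatives. They set the pseudocount to 0.1 or 5, dropped the filter or raised it to 5 FPKM, changed the scaling (median ratio, quantile, or a common total that leaves immunoglobulin genes out) or the model (eBayes without trend and robust, array weights, replicate block), removed length and GC trends, or left out each library in turn or IgG1 replicates 4 and 5 together. The labels name no batch.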

Additional observations from a re-analysis of the deposited data

Results flagged for a closer look

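In each group of 5 libraries the gap between the most extreme value of each member and its nearest neighbour was divided by the range of the 5 values. That share was held against Dixon's criterion at 95%, which chance alone meets in about 1 of 20 groups. Of 100 groups, 4 met it, all in IgM libraries. Noc4l was at 16.5 FPKM in IgM replicate 2, above 10.5 to 11.2 FPKM in the other IgM libraries. Nob1 was at 17.9 FPKM in IgM replicate 3, above 11.3 to 13.0 FPKM in the others. Ltv1 was at 31.9 FPKM in IgM replicate 1, above 24.6 to 26.0 FPKM in the others. Gnl3 was at 41.3 FPKM in IgM replicate 5, below 46.6 to 48.6 FPKM in the others. None of these 4 genes passed the comparison of the groups, and Gnl3 alone passed under 1 of 22 alternatives, without IgG1 replicate 4.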

How the results depend on the processing

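The number of members that rose in IgG1 was 25 and stayed between 19 (no filter) and 28 (quantile normalization) over the 22 alternatives, and between 21 and 24 with single libraries left out. The count that fell was 1 and became 0 with no filter, quantile normalization, eBayes without trend and robust, length and GC trends removed, and IgG1 replicates 4 and 5 left out, and ran from 0 to 1 with single libraries left out. This gene was Tsr1, whose limma adjusted p ran from 0.0178 to 0.161. Other ribosome biogenesis genes that rose numbered 22, and 13 with no filter, which tests 24060 genes. The median difference of the members was 0.35, and 0.45 with quantile normalization. Differences of members that did not pass changed sign in 8 cases. With length and GC trends removed, Imp3 came to -0.07, Noc4l to -0.16, Nob1 to -0.02 and Rrp1 to -0.09. With single libraries left out, Noc4l ran from -0.06 (without IgG1 replicate 4) to 0.17, and Utp15 from -0.04 (without IgG1 replicate 5) to 0.20. Without both of these IgG1 libraries Noc4l came to -0.18 and Utp15 to -0.06. The cause was not tested.

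Same-numbered IgG1 and IgM libraries did not deviate together (correlations -0.0357 to 0.0966). Such correlations cannot tell whether they come from the same animal or sort, and the labels do not say. With a replicate block 23 members rose and 1 fell, and 1 of 5 numbers, replicate 3, correlated best with its own. Low levels, 5 libraries a group and unknown counts limit what small differences can be told from 0.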
